A study of Rattus norvegicus with 12 samples.

Results

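The proteins that assemble triglyceride-rich lipoproteins, and that remodel or clear them afterwards, were followed as a set of 10 genes in rat jejunum and liver. The genes were Apob, Mttp, Mogat2, Fabp1, Fabp2, Apoa1, Apoa4, Apoa5, Apoc2 and Apoc3, chosen by name. All 10 were found among the 21568 genes of the jejunal table and among the 18703 genes of the liver table. The animals were Wistar Han rats kept under specific-pathogen-free conditions. For 2 weeks they received by gavage, at 5 mL/kg, either saline or an antimicrobial mixture. Of ampicillin, metronidazole and neomycin sulfate it held 20 g/L each, of vancomycin 10 g/L, and of amphotericin B, which acts on fungi, 0.2 g/L. The labels call the saline rats wild type, and the mixture was given to deplete the intestinal flora. Poly(A) RNA was sequenced from 3 libraries in each of the 4 groups (jejunum and liver, saline and antibiotics), 12 libraries in all. The labels do not tie a library to a named animal, so each p-value below measures the spread between these libraries. Nor do they say whether a jejunal and a liver library came from the same rat, and fits over both tissues treated all 12 libraries as independent.

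Dietary fat reaches the blood in chylomicrons, which enterocytes of the small intestine build, while hepatocytes build very low density lipoproteins by the same route. In both cells apolipoprotein B forms the backbone of the particle, and the microsomal triglyceride transfer protein loads lipid onto it as it is made. Small exchangeable apolipoproteins then decide how fast lipoprotein lipase empties the particle and how fast the remnant is taken up. Intracellular fatty acid binding proteins carry fatty acids to the membranes where triglyceride is made.

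RefSeq promoter windows of the GRCr8 build were available for Fabp1, Fabp2, Apoc2, Apoa4 and Apoa5, the last with 2 start sites. Apob, Mttp, Apoa1, Apoc3 and Mogat2 had no entry. The 250 bases before the start are printed for Fabp1 and Apoc2, which fell in liver, and for Fabp2, the intestinal relative of Fabp1. They read from 5′ to 3′ on the gene's strand, and capitals mark the motifs found.
Fabp1, chr4:104749090-104749339, plus strand: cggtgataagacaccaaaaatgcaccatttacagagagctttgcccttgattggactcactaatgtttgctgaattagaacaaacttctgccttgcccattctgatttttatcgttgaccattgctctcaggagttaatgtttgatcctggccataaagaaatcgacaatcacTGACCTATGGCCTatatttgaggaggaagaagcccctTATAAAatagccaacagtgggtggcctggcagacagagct
Apoc2, chr1:88462366-88462615, minus strand: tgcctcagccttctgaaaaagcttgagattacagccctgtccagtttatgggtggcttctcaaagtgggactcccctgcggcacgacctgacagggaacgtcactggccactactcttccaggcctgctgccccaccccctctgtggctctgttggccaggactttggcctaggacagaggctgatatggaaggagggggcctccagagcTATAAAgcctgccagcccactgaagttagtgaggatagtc
Fabp2, chr2:213724379-213724628, plus strand: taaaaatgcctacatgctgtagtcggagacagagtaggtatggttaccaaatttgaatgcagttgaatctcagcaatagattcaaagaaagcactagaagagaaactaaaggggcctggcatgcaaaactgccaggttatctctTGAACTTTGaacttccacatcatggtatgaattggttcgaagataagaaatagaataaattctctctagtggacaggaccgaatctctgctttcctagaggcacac
Motifs were searched on both strands. A direct repeat, AGGNCA followed after any 1 base by another AGGNCA, of the kind that HNF4 and PPAR receptors bind, was found in 0.415% of all 33469 RefSeq rat promoter windows and, among the windows of these genes, in that of Fabp1. There it lies on the minus strand and begins at base -77 from the start. The sequence CAAAGTNCA, of a kind that HNF4 binds, was found in 1.24% of all windows and, among these genes, in that of Fabp2, on the minus strand from base -106. The TATA box TATAAA was found in 14.2% of all windows and lies at base -40 in both Fabp1 and Apoc2. It was also found in both windows of Apoa5, which overlap. There it is a single sequence seen from the 2 start sites, at base -30 from one and -184 from the other. The motifs did not overlap one another in these windows.

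The abundance of the 10 messages was compared per length of gene, as the authors' FPKM (fragments per kilobase of gene, scaled to library size), given as mean ± SD with n = 3. In saline jejunum Fabp2 stood first with 3472 ± 2014 FPKM and Fabp1 second with 2471 ± 2525. Apoa1 followed with 938 ± 208 FPKM and Apoa4 with 297 ± 42.0. Apoc3, Apoc2 and Mttp lay close together at 136 ± 56.1, 136 ± 50.6 and 129 ± 86.2 FPKM. Apob came to 33.1 ± 10.6 FPKM, Mogat2 to 20.6 ± 13.2 and Apoa5 to 0.849 ± 1.08. The ranges of Fabp2 and Fabp1, of Fabp1 and Apoa1, of Apoc3, Apoc2 and Mttp as neighbours, and of Apob and Mogat2 overlapped. Within each saline library, however, Fabp2 was above Fabp1, Fabp1 above Apoa1 and Apob above Mogat2. The order of Apoc3, Apoc2 and Mttp changed between libraries. Differences between genes were not tested. With antibiotics Fabp2 was at 2285 ± 329.6 FPKM and Apoa1 at 937 ± 179, and Fabp1 came below them at 639 ± 48.2.

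Liver gave another order. In saline liver Fabp1 reached 7102 ± 1039 FPKM and Apoc3 6586 ± 2327, with overlapping ranges. Apoa1 (1756 ± 369.7 FPKM) and Apoc2 (1632 ± 487) formed a second overlapping pair. Below them came Apoa5 at 531 ± 199, Apob at 259 ± 34.5, Apoa4 at 96.9 ± 14.5 and Mttp at 51.5 ± 1.29 FPKM, with no overlap between neighbours. Fabp2 and Mogat2, at 2.10 ± 1.41 and 0.0808 ± 0.0392 FPKM, were close to the floor of the liver libraries, where Mogat2 had 0 to 3 reads. With antibiotics Fabp1 remained first in liver at 3407 ± 307 FPKM, Apoa1 was second at 2838 ± 1693, and Apoc3 followed at 2339 ± 471, the ranges of these neighbours overlapping. The tissues were normalized in separate tables, so their levels are set side by side and not tested.

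Depth and tissue identity were checked first. Recovered reads per library were 14592126 to 18322008 in jejunum and 15017775 to 19318616 in liver, and the 10 genes held 0.221% to 0.647% of them in jejunum and 1.38% to 1.73% in liver. Albumin was at 12200 to 31903 FPKM in the liver libraries and at 0.523 to 13.5 in the jejunal ones, and the enterocyte gene Vil1 was at 42.4 to 227.3 FPKM in jejunum and at 0 to 0.0567 in liver. The jejunal libraries differed among themselves in tissue makeup. Mitochondrial genes took 26.8% to 80.7% of their reads. The summed FPKM of 10 smooth muscle markers was 5499, 1938 and 1904 in saline libraries 1 to 3 and 6519, 6923 and 7278 with antibiotics. That of 9 adipocyte markers was 3273, 544 and 4016 with saline and 546, 205 and 216 with antibiotics, and that of 11 enterocyte markers was 742, 1674 and 1383 against 686, 1013 and 774. No marker of these lists was at 0 in any jejunal library. Jejunal antibiotics library 3 held 1208 FPKM of Fabp6, the ileal bile acid binding protein, against 1.91 to 15.7 in the other 5, and 1.51 FPKM of the ileal bile acid transporter Slc10a2 against 0 to 0.164. The last of the 3 ileal genes, the bile acid exporter subunit Slc51a, was not set apart in that library, at 98.9 FPKM against 33.1 to 110.1 in the others. What these differences contribute to the jejunal values was not tested. In liver, mitochondrial genes took 25.0%, 6.42% and 16.0% of the reads of saline libraries 1 to 3 and 4.48%, 3.93% and 3.60% with antibiotics. These shares did not overlap between the groups compared, and their part in the liver values was not tested. In whole tissue, fewer cells of a type and less RNA per cell cannot be told apart.

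**Figure D1:**
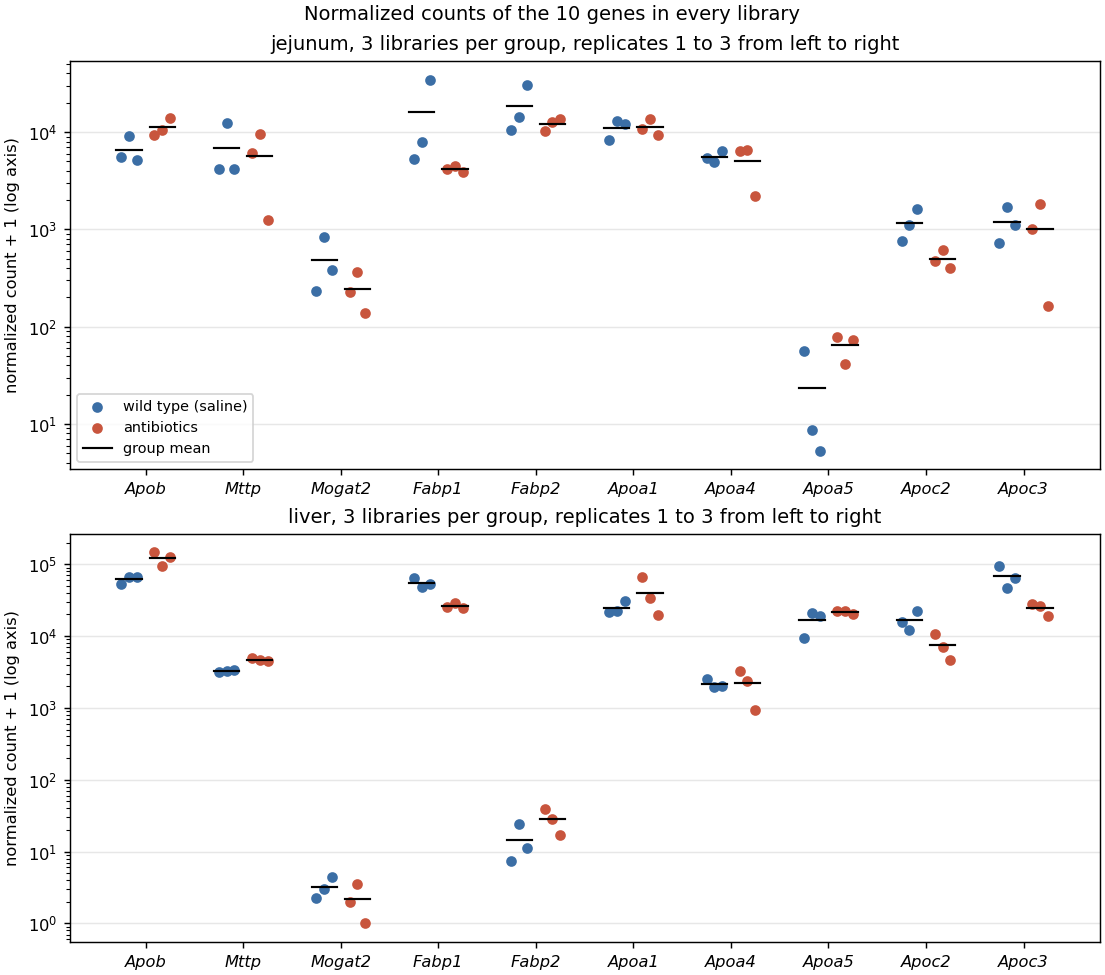
Normalized counts (log axis) of the 10 genes in every library, jejunum above and liver below, plotted as count plus 1, with saline libraries (labelled wild type) in blue, antibiotics libraries in red and group means as bars. In liver the antibiotics points of Apob and Mttp lie above all saline points and those of Apoc2, Apoc3 and Fabp1 lie below them, while in jejunum most groups overlap.

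Values from here on are the authors' normalized counts, that is read counts divided by 1 factor per library, listed for libraries 1, 2 and 3. Each fold change is the antibiotics level over the saline level on the log2 scale, and the standard error (SE) and p come from limma fitted over all genes of a tissue, with p adjusted by Benjamini and Hochberg and a call at an adjusted p under 0.05.

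The particle core was measured through Apob and Mttp. Apob (ENSRNOG00000005542, chromosome 6, 33176778 to 33224997, plus strand, in the coordinates of the deposited tables, whose build is not given in the sources used here) had 52337, 66282 and 66841 normalized counts in saline liver and 146869, 93906 and 126360.1 with antibiotics. Every antibiotics liver library stood above every saline one. Apob rose 1.96-fold in liver, a log2 change of 0.97 with SE 0.27 (limma adjusted p = 0.0438). In jejunum Apob had 5544, 9110.2 and 5145 counts with saline and 9250.1, 10409 and 14103 with antibiotics, again without overlap, although the lowest antibiotics value was close to the highest saline one. Its jejunal log2 change of 0.80 (SE 0.32) was not called, with a limma adjusted p of 0.179.

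Mttp (ENSRNOG00000010655, chromosome 2, 243366181 to 243407608, minus strand), the lipid-loading partner of Apob, was the steadiest of the 10 genes in saline liver. It had 3199.9, 3282 and 3362 counts there and 4936, 4691 and 4510.3 with antibiotics. The groups did not overlap, and the log2 change of 0.52 (SE 0.19) missed the threshold at a limma adjusted p of 0.0886. In jejunum Mttp had 4183, 12281 and 4192 counts with saline and 6039, 9666 and 1236 with antibiotics. The lowest of the 6 jejunal values was that of antibiotics library 3, and the jejunal log2 change was -0.53 (SE 0.74, limma adjusted p = 0.715). Without that library it was 0.35.

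The FPKM of Apob divided by that of Mttp was 4.37, 5.39 and 5.31 in saline liver and 7.94, 5.35 and 7.48 with antibiotics. In jejunum the same quotient was 0.354, 0.198 and 0.328 with saline and 0.409, 0.288 and 3.05 with antibiotics. Antibiotics library 3 of the jejunum, the one with the ileal messages, thus held both the most Apob and the least Mttp of its tissue.

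Inside the cell, Mogat2 makes diacylglycerol from absorbed monoacylglycerol, and Fabp1 and Fabp2 carry fatty acids. Fabp1 (ENSRNOG00000006675, chromosome 4, 99063181 to 99066954, plus strand) had 63626, 47735 and 53548 normalized counts in saline liver and 25641, 28989 and 24523 with antibiotics. All antibiotics liver values were below all saline ones. Fabp1 fell in liver by a log2 of 1.05 (SE 0.24, limma adjusted p = 0.0224), and its level in saline liver was 2.07-fold that with antibiotics. In jejunum Fabp1 had 5306, 7923 and 34582 counts with saline and 4171, 4474 and 3844 with antibiotics. The groups did not overlap there either, but saline library 3 stood far above the others. That library also had the highest mitochondrial share of reads (80.7%) and the most adipocyte message (4016 summed FPKM), and their part in the value was not tested. The jejunal log2 change of Fabp1 was -1.45 (SE 0.57, limma adjusted p = 0.180), and -0.64 without saline library 3.

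Fabp2 (ENSRNOG00000024947, chromosome 2, 227080924 to 227083501, plus strand) had 10423, 14410.1 and 30414 counts in saline jejunum and 10238, 12808 and 13609.7 with antibiotics. Saline library 3 was again the highest, and the other 5 libraries lay close together. The jejunal log2 change was -0.45 (SE 0.39, limma adjusted p = 0.529). In liver Fabp2 had 6.37, 23.5 and 10.3 counts with saline and 37.8, 27.6 and 15.8 with antibiotics, from 5 to 38 reads a library. Its log2 change of 1.07 (SE 0.54) was not called at a limma adjusted p of 0.207. Without saline liver library 2 it was 1.54, with an adjusted p of 0.0466. In jejunum the FPKM of Fabp1 was 0.418, 0.451 and 0.934 of that of Fabp2 with saline and 0.334, 0.287 and 0.232 with antibiotics, so the quotient was lower in each antibiotics library than in each saline one.

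Mogat2 (ENSRNOG00000027228, chromosome 1, 164181764 to 164205222, minus strand) had 231, 829.7 and 383 counts in saline jejunum and 226, 364 and 136 with antibiotics. The highest value was in saline library 2 and the lowest in antibiotics library 3. The jejunal log2 change of -0.90 (SE 0.48) was not called at a limma adjusted p of 0.298, and it was -0.54 without antibiotics library 3. In liver Mogat2 had 1, 2 and 3 reads with saline and 1, 3 and 0 with antibiotics. All 6 libraries were at or under the floor of 3 reads, so no liver fold and no tissue difference of Mogat2 are given.

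Apoa1, Apoc3, Apoa4 and Apoa5 are neighbours on rat chromosome 8, where they span 36646 bases. Apoa1 lies at 50525091 to 50526875 on the plus strand (ENSRNOG00000045679). Apoc3 follows 2442 bases on, at 50529318 to 50531498 on the minus strand (ENSRNOG00000047503). Apoa4 begins another 5510 bases on, at 50537009 to 50539376 on the plus strand (ENSRNOG00000055909). Apoa5 lies 19749 bases beyond it, at 50559126 to 50561736 on the plus strand (ENSRNOG00000018436). In liver Apoc3 was called and the other 3 were not, and the difference between genes was not tested.

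Apoc3, which inhibits lipoprotein lipase and slows remnant uptake, had 94401, 46806 and 63655 normalized counts in saline liver and 28109, 25914 and 18778 with antibiotics. Every antibiotics liver library was below every saline one. Apoc3 fell in liver by a log2 of 1.45 (SE 0.31, limma adjusted p = 0.0192), and the saline level was 2.74-fold that with antibiotics. In jejunum Apoc3 had 721, 1708 and 1112 counts with saline and 1008, 1817 and 164 with antibiotics. The value of antibiotics library 3 was far below the others. The jejunal log2 change was -0.73 (SE 0.80, limma adjusted p = 0.627), and 0.29 without that library.

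Apoa1, the main protein of high density lipoprotein, had 21608, 22102 and 30894 counts in saline liver and 66711, 34116 and 19795 with antibiotics. The antibiotics libraries spread on both sides of the saline ones. The log2 change of 0.54 (SE 0.41) was not called at a limma adjusted p of 0.398. In jejunum Apoa1 had 8244, 12885 and 12209.8 counts with saline and 10713, 13483 and 9278 with antibiotics. The groups overlapped throughout, with a log2 change of 0.02 (SE 0.30, limma adjusted p = 0.982) that was -0.015 under TMM scaling. The FPKM of Apoc3 divided by that of Apoa1 was 5.97, 2.89 and 2.81 in saline liver and 0.575, 1.04 and 1.30 with antibiotics. This quotient did not overlap between the liver groups, while in jejunum it was 0.119, 0.181 and 0.124 against 0.128, 0.184 and 0.0241.

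Apoa4, which enterocytes add to chylomicrons and which rodent liver also makes, had 2545, 1953 and 2018 counts in saline liver and 3271, 2379 and 921 with antibiotics. The antibiotics libraries held both the highest and the lowest value. Its liver log2 change was -0.16 (SE 0.43, limma adjusted p = 0.830), and 0.37 without antibiotics library 3. In jejunum it had 5452, 4873 and 6349 counts with saline and 6413, 6605 and 2190.3 with antibiotics. Antibiotics library 3 was again the lowest, and the log2 change of -0.29 (SE 0.41, limma adjusted p = 0.714) was 0.24 without it and 0.21 under scaling by library totals.

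Apoa5, a plasma protein that aids triglyceride hydrolysis, is made mainly in the liver. It had 9519, 21182 and 19199 counts in saline liver and 22347, 22601 and 20197 with antibiotics. Saline library 1 was low, and the other 5 lay close together. The log2 change of 0.47 (SE 0.31) was not called at a limma adjusted p of 0.330, and it was 0.10 without saline library 1. In jejunum Apoa5 was scarce, with 54, 11 and 2 reads with saline and 69, 48 and 114 with antibiotics. As normalized counts these were 54.6, 7.59 and 4.30 against 78.0, 40.7 and 71.8. Saline library 1 stood within the antibiotics range, and that library also held more smooth muscle message (5499 summed FPKM) than the other saline libraries, a difference whose part in the value was not tested. The log2 change of 2.19 (SE 0.84, limma adjusted p = 0.167) was not called, while without saline library 1 it was 3.20 with an adjusted p of 0.0173.

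**Figure D2:**
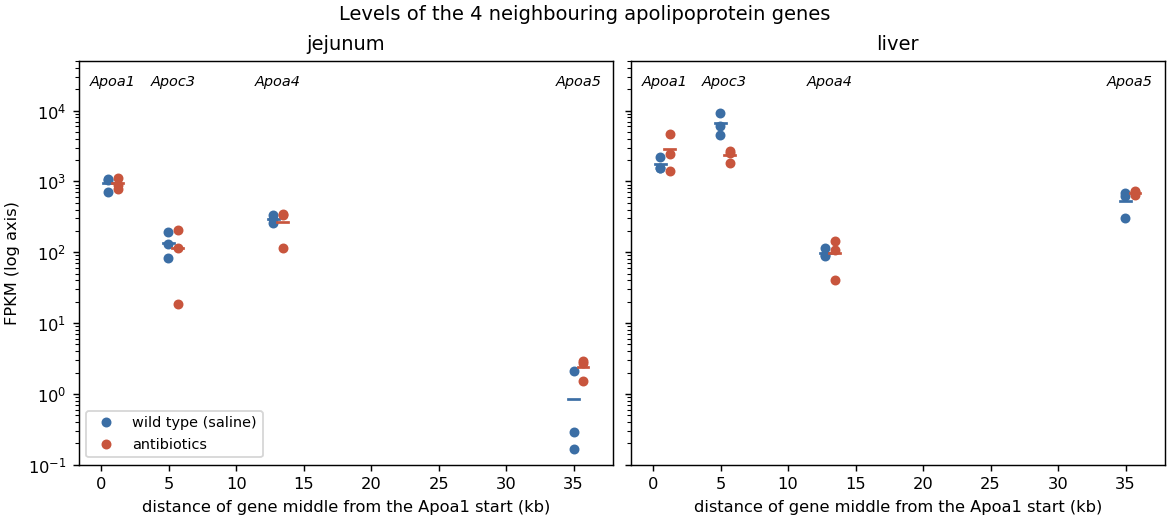
Levels in FPKM (log axis) of Apoa1, Apoc3, Apoa4 and Apoa5 against the distance of each gene's middle from the start of Apoa1 (kb), for every library of each tissue, with saline (labelled wild type) in blue, antibiotics in red and group means as bars. In liver the antibiotics points of Apoc3 all lie below the saline ones, whereas those of Apoa1, Apoa4 and Apoa5 overlap them.

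Apoc2 (ENSRNOG00000018402, chromosome 1, 80589023 to 80594136, minus strand) is the cofactor that activates lipoprotein lipase. It had 15866, 12319 and 22189 counts in saline liver and 10781, 7052 and 4639 with antibiotics. The groups did not overlap in liver. Apoc2 fell there by a log2 of 1.21 (SE 0.34, limma adjusted p = 0.0438), with a saline level 2.31-fold that with antibiotics. In jejunum it had 766, 1112 and 1622 counts with saline and 477, 617 and 402 with antibiotics. The jejunal groups did not overlap either. The jejunal log2 change of -1.18 (SE 0.32) was close to that in liver and had a limma adjusted p of 0.0762. Without saline library 1 of the jejunum it was -1.45, with an adjusted p of 0.0170. DESeq2, and with it the authors' deposited table, gave an adjusted p of 0.0134 for Apoc2 and 0.0108 for Fabp1 in jejunum.

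In liver 4 of the 10 genes were called, Apob higher and Apoc2, Apoc3 and Fabp1 lower. Of all 16540 liver genes tested 12.8% were called, 7.93% higher and 4.89% lower. Over the 9 genes above the floor of 3 reads the median log2 change was 0.47, with 5 above 0 and 4 below, beside -0.01 over all genes. Groups did not overlap for 2 genes that were higher (Apob and Mttp) and 3 that were lower, against a background of 37.8%, of which 19.7% were higher and 18.1% lower. The count of 4 depended on single libraries. It was 2 without saline library 1, 5 without saline library 2 and 0 without saline library 3, and 1, 0 and 0 without antibiotics libraries 1, 2 and 3. The share of all genes called moved as well, to 5.57%, 26.7% and 0.447% without saline libraries 1, 2 and 3 and to 2.91%, 3.19% and 2.30% without antibiotics libraries 1, 2 and 3. Over these fits the log2 change of Apob ranged from 0.83 to 1.15, and the adjusted p of the called genes rose at most to 0.172, that of Apoc2 without saline library 3. DESeq2 called 5 genes, adding Mttp (adjusted p = 0.0155), against 21.5% of the 14327 genes to which it gave an adjusted p. edgeR called 3, leaving out Apoc2 (adjusted p = 0.0563), against 16.6% of the 12808 genes it tested.

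In jejunum limma called 0 of the 10 genes, against 1.28% of the 19450 genes tested (0.761% higher and 0.519% lower). At an unadjusted p under 0.05 there were 4, namely Apob, Apoa5, Apoc2 and Fabp1, beside 4324 of the 19450 genes tested. DESeq2 called 2, against 11% of the 16098 genes to which it gave an adjusted p. edgeR called 0 against 0.185% and limma-voom 0 against 1.84%, each of the 15147 genes it tested. Groups did not overlap for 1 higher gene, Apob, and 2 lower ones, Apoc2 and Fabp1, against a background of 27.9%, of which 16.6% were higher and 11.3% lower. The median log2 change was -0.49, with 3 genes above 0 and 7 below, beside 0.06 over all genes. When libraries were scaled by their totals the all-gene median was 0.51 in jejunum and 0.14 in liver, and the scaling gave jejunal calls of 55 higher and 4 lower in place of 148 and 101.

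**Figure D3:**
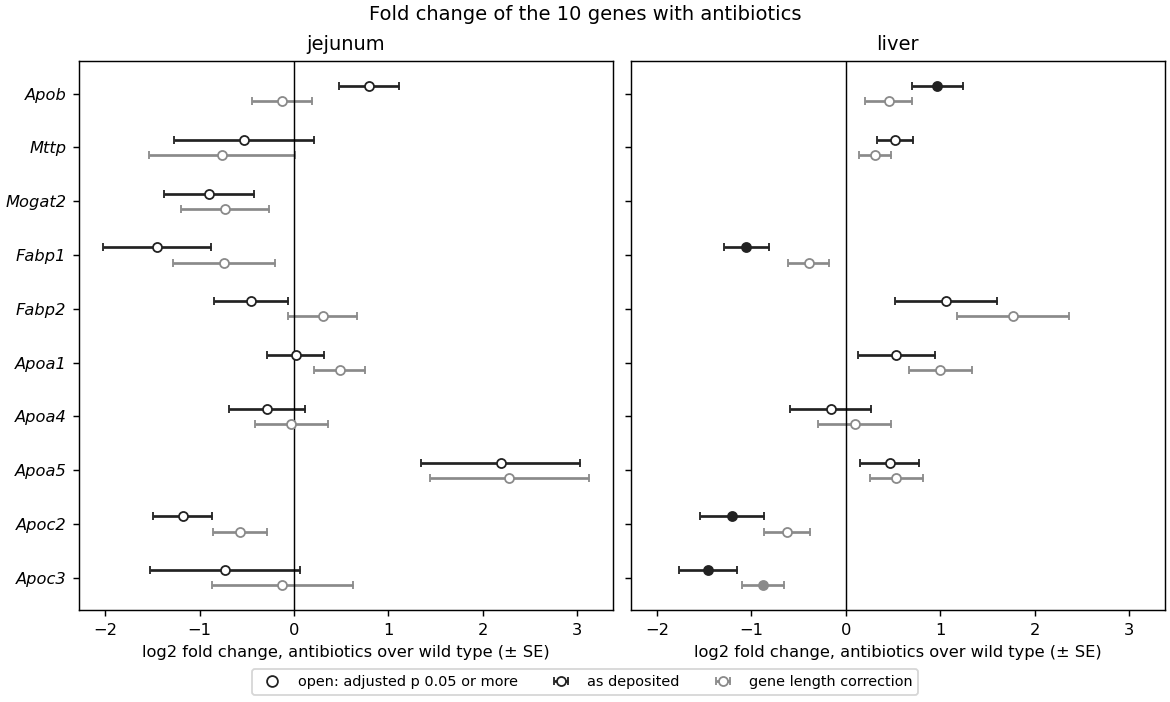
Log2 fold change of the 10 genes, antibiotics over saline (labelled wild type), with SE from limma, in jejunum (left) and liver (right). Black shows the deposited values, grey the values after a correction for gene length, and filled points are called. Mogat2 in liver, with 0 to 3 reads a library, is not plotted. In liver Apob, Fabp1, Apoc2 and Apoc3 are called as deposited and Apoc3 alone after the correction, when it stands at -0.88.

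The 4 genes called in liver differ widely in gene length. The 3 that fell in liver are short, at 486 bases for Fabp1, 646 for Apoc2 and 651 for Apoc3, and the 1 that rose, Apob, is by far the longest at 14969 bases. Of the genes not called in liver, Fabp2 is shorter still at 399 bases and had a log2 change of 1.07. Apoa1, of 889 bases, had 0.54. Fabp2 had only 5 to 38 reads a liver library, and the liver groups of both genes overlapped. Length was then read over all well-measured genes, those with a mean of at least 50 counts. Their median log2 change in liver was -0.68 over 474 genes of up to 700 bases and 0.43 over 244 genes of more than 8000 bases. In jejunum it was -0.69 over 521 and 0.66 over 306 such genes. Of liver genes of up to 1000 bases 20.4% were called lower, and of those over 3000 bases 17.0% were called higher. Subtracting from each library its own trend of deviation on gene length left 1 of the 10 genes called in liver, against 9.72% of all genes. This was Apoc3, with a log2 change of -0.88 and a limma adjusted p of 0.0402. The log2 change of Apob in liver became 0.46 (adjusted p = 0.259), that of Apoc2 -0.63 (adjusted p = 0.124) and that of Fabp1 -0.39 (adjusted p = 0.253). In jejunum the same step moved Apob to -0.12 and Fabp2 to 0.30, which reversed both, and Fabp1 to -0.74 and Apoc2 to -0.57, with 0 of the 10 called against 0.123% of all genes. Mogat2 and Apoa5, of 1746 and 1967 bases, lie in a length class whose medians were -0.26 in jejunum and -0.22 in liver. What shapes the relation to length was not tested.

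**Figure D4:**
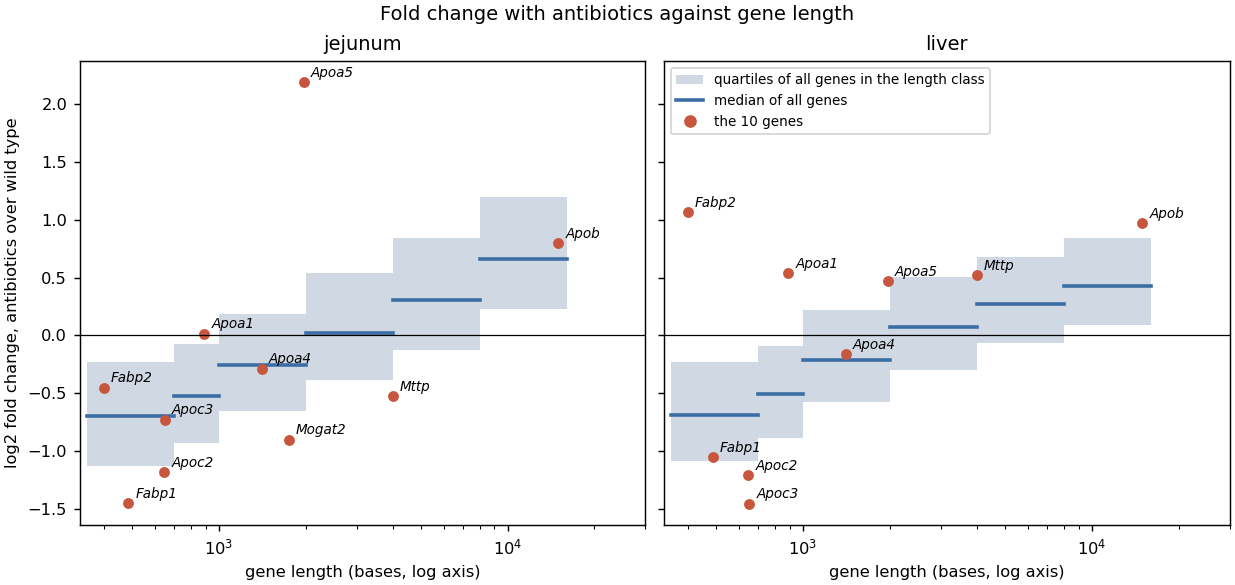
Log2 fold change of antibiotics over saline against gene length in bases (log axis) in jejunum and liver; labelled points are the 10 genes, and bars and shading give the median and quartiles of all well-measured genes by length class. Mogat2 in liver, with 0 to 3 reads a library, is not plotted. The class medians climb with length in both tissues, reaching 0.66 for the longest jejunal genes from -0.69 for the shortest, and 0.43 from -0.68 in liver.

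Antibiotics library 3 of the jejunum stood apart for several genes. It held the lowest jejunal value of Mttp, Apoc3, Apoa4, Mogat2, Apoc2 and Fabp1, and the highest of Apob. Averaged over the 10 genes, its log2 deviation from the tissue mean was -0.67, against -0.16 to 0.31 in the other 5 libraries. For the 11 enterocyte markers the same deviation was -1.19 in that library and -0.34 to 0.77 in the others. Without that library the log2 changes of Mttp, Apoc3 and Apoa4 turned from below 0 to above 0, as given above, while Apoc2 was at -1.04, Fabp1 at -1.39 and Apob at 0.62. The count of genes called was 0 without that library, in a fit that called 1 of 19377 genes, and 2, Apoa5 and Apoc2, without saline library 1, in a fit that called 9.79% of all genes.

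**Figure D5:**
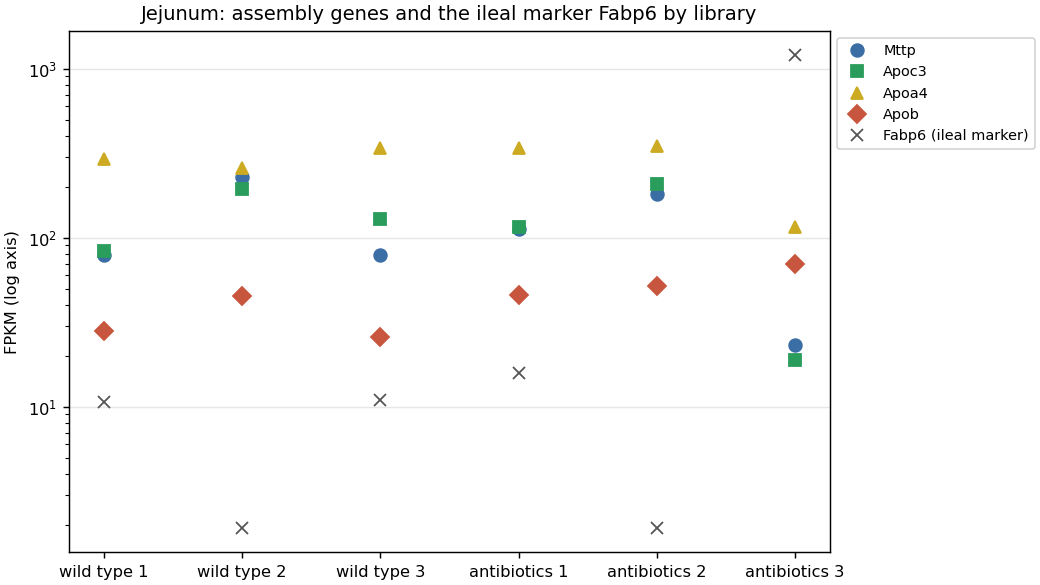
Levels in FPKM (log axis) of Mttp, Apoc3, Apoa4, Apob and the ileal gene Fabp6 in each of the 6 jejunal libraries (saline is labelled wild type). Antibiotics library 3 has the lowest Mttp (23.1 FPKM), Apoc3 (18.8) and Apoa4 (116), the highest Apob (70.3) and 1208 FPKM of Fabp6.

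The difference in response between tissues was tested directly, as the liver change minus the jejunal change, in 1 limma fit over 16110 genes. Of these 0.534% were called, and 3142 had an unadjusted p under 0.05. Of the 10 genes 0 were called, with 1 at such an unadjusted p. edgeR and DESeq2 also called 0 of the 10, against 0.106% of 14166 genes (15) and 6.65% of 13620 genes with an adjusted p (906). That 1 gene was Fabp2, with a difference of 1.52 (SE 0.64, adjusted p = 0.217). The difference was -1.72 for Apoa5 (SE 0.95, adjusted p = 0.342) and 1.05 for Mttp (SE 0.87, adjusted p = 0.537). For Apoc2 it was -0.03 (SE 0.49). Without jejunal saline library 1 the difference of Apoa5 was -2.74, with an adjusted p of 0.0125, and 1 of the 10 genes was called, in a fit that called 5.73% of all genes.

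The other genes of the pathway were read from lists named for it. Their counts stand beside the shares of all genes called, 7.93% higher and 4.89% lower in liver and 0.761% and 0.519% in jejunum. With the length correction the shares in either direction were 9.72% in liver and 0.123% in jejunum. Without single libraries they ran from 0.447% to 26.7% in liver and from 0.00515% to 9.79% in jejunum. edgeR and DESeq2 called 16.6% and 21.5% in liver and 0.185% and 11% in jejunum, of the genes each gave an adjusted p. By limma an unadjusted p under 0.05 was found for 5237 of 16540 genes in liver and 4324 of 19450 in jejunum. Of 16 measured genes listed for lipoprotein particle assembly and secretion, 6 rose in liver and 0 fell, with a median log2 change of 0.84. Tm6sf2, which acts in lipid loading of very low density lipoprotein, rose from 218 ± 63.9 to 527 ± 62.6 normalized counts (log2 1.30, limma adjusted p = 0.0117). P4hb, the protein disulfide isomerase that is also a subunit of the microsomal transfer protein, rose from 12754 ± 4040.4 to 28834 ± 3090.3 (log2 1.22, adjusted p = 0.0229). Hspa5, a chaperone of the endoplasmic reticulum, was higher by a log2 of 1.34 (adjusted p = 0.0219), and the kinesin gene Kif5b by 1.90 (adjusted p = 0.0178). With values corrected for gene length, 7 of the 16 were called. Leaving out single liver libraries gave 0 to 7, with 0 without saline library 3 or antibiotics library 1 and 1 without antibiotics library 2 or 3. In jejunum limma called 0 of the 16, with 2 at an unadjusted p under 0.05, edgeR 0 and DESeq2 1, and the median was -0.21.

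Of 13 further apolipoprotein and lipoprotein-bound enzyme genes measured in liver, 4 fell and 0 rose, with a median log2 change of -0.51. Apoa2, the second protein of high density lipoprotein, fell from 39400.1 ± 16910.0 to 8218 ± 929.5 counts (log2 change -2.15, limma adjusted p = 0.00941). Apoe, the ligand for remnant receptors, fell from 305497 ± 70326 to 136224 ± 16517 (log2 change -1.14, adjusted p = 0.0309). Apoc1 and the esterase gene Pon1 had log2 changes of -1.87 (adjusted p = 0.0133) and -1.13 (adjusted p = 0.0139). Apoa2 and Apoc1 are also short, at 440 and 207 bases, and 3 of the 13 genes were called after the length correction. Leaving out single libraries gave 0 to 6, with 0 without saline library 3, 2 without antibiotics library 1 and 1 without antibiotics library 2 or 3. In jejunum 0 of 10 such genes were called by limma, edgeR or DESeq2, 0 had an unadjusted p under 0.05, and the median was -0.11.

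Of the genes that take up fatty acids and rebuild triglyceride, 2 of 19 fell in jejunum and 0 rose, with a median log2 change of -0.46. Agpat2, which makes phosphatidic acid on the way to triglyceride, fell from 1037 ± 315 to 273 ± 80.6 counts (log2 change -1.92, limma adjusted p = 0.0340). Dbi, an acyl-CoA binding protein, fell from 985 ± 203 to 312 ± 73.8 (log2 change -1.66, adjusted p = 0.0340). Adipocytes also use this pathway. The summed FPKM of their 9 markers, given above, overlapped between the groups. The lowest saline library was at 544 and the highest antibiotics library at 546. All 9 markers had log2 changes below 0, 8 of them with an unadjusted limma p under 0.05. Limma called 0 of the 9, and DESeq2 called 8 lower, against 11% of the genes to which it gave an adjusted p. The part of adipocytes was not tested. The count of 2 was 4 by DESeq2 and 0 by edgeR, under scaling by library totals or with the correction for gene length. It was 1 without saline library 2, 2 without saline library 1, and 0 without saline library 3 or any single antibiotics library. In liver limma called 0 of 17, with 5 at an unadjusted p under 0.05, edgeR 1 and DESeq2 3, and the median was -0.09.

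Among plasma lipases, lipid transfer proteins and lipase inhibitors, 2 of 11 fell in liver and 0 rose. Pltp, which moves phospholipid between particles, had a log2 change of -1.14 (limma adjusted p = 0.0260). The liver count was 3 without saline library 2, 1 without saline or antibiotics library 1, and 0 without saline library 3 or antibiotics library 2 or 3. In jejunum limma called 0 of 11, with 6 at an unadjusted p under 0.05, edgeR 0 and DESeq2 5, and 9 of the 11 had log2 changes below 0, among them Angptl4 at -2.34 (limma adjusted p = 0.0532).

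The average profile of the 10 genes over the 6 libraries of a tissue was matched by root mean square difference on the log2 scale, which is a description. In jejunum it was closest to Cwc22, at 0.0879, Ccdc93 and Snx11 among 9574 genes. In liver it was closest to Ctsl, at 0.0291, Slc25a25 and Rpl23 among 7806 genes. The liver average included Mogat2, with 0 to 3 reads a library, and Fabp2, with 5 to 38, so counting error in them entered it. The 10 genes themselves lay farther from their own average, at 0.208 to 1.77 in jejunum and 0.364 to 0.765 in liver.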

How the data were processed

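The authors deposited 1 table per tissue. Per the labels' protocols, poly(A) RNA was sequenced as paired reads, and per the submitters' processing notes CASAVA 1.4, HISAT2 2.0.5 and DESeq2 1.20.0 were used. The genome build, the counting tool and the use of strand are not given in the sources used here. Per the file headers the tables hold a count column and an FPKM column per library, and the authors' log2 fold changes with p-values and adjusted p-values. The deposited count columns are a normalized signal: multiplying a column by its own factor returned integer reads for 100% of the values above 0, within 0.01 reads, and these are called recovered reads. No libraries were duplicates.

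Limma 3.58.1 (R 4.3.3, trend and robust options) was fitted to log2 of the normalized count plus 1, for genes with a mean of at least 1, over all genes of a tissue. All 10 genes passed that filter in both tissues. Fold changes on this scale understate changes of low genes. The tissue difference used 1 limma fit over 12 libraries. Alternatives were edgeR 4.0.16 and DESeq2 1.42.0 on recovered reads, limma-voom, TMM and library-total scaling, other filters and pseudocounts, a replicate block, single libraries left out, and a length correction. That correction took off each library's lowess trend on log gene length (span 0.3), estimated from genes averaging 50 counts or more. A floor of 3 reads covers counting error only.

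The genes, lists and tests were chosen with earlier results of these data known. Besides the 10 genes, up to 4 genes of a list with the smallest p were named, and the 3 nearest by profile per tissue. Some genes of these lists are not reported here by name. Promoter windows came from RefSeq (GRCr8).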

Additional observations from a re-analysis of the deposited data

How the results depend on the processing

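With 3 libraries a group, depth limited only Apoa5 in jejunum and Fabp2 and Mogat2 in liver. Genes called in jejunum were 148 higher and 101 lower (in all 59 with library totals, 160 with a pseudocount of 0.1, 28 by edgeR, 1772 by DESeq2, 24 with the length correction, 1 to 1902 without single libraries), 2121 in liver (74 to 4416 without single libraries) and 86 for the tissue difference (164 with a pseudocount of 5, 15 by edgeR, 906 by DESeq2, 42 by limma-voom, 160 with the length correction, 3 to 923 without single libraries). Of the 10 genes, 0 were called in jejunum (2 by DESeq2, 0 to 2 without single libraries), 4 in liver (1 with the length correction, 0 to 5 without single libraries) and 0 for the tissue difference (0 to 1). The lists of assembly genes and other apolipoproteins in liver ranged over 0 to 7 and 0 to 6 without single libraries, and these counts were added after seeing the data. The labels give no pairing, and the main fits used none. Deviations of same-numbered saline and antibiotics libraries correlated at 0.0802, 0.105 and 0.0172 in jejunum and at 0.0498, -0.0547 and -0.0817 in liver. Those of differently numbered libraries correlated at -0.0958 to 0.0222 in jejunum and at -0.0762 to 0.130 in liver. These values do not settle whether the libraries pair. With the replicate number as a block, genes called were 1625 in jejunum (8.35%), 1779 in liver (10.8%) and 248 for the tissue difference (1.54%). Of the 10 genes 1 was then called in jejunum (Apoc2) and 2 in liver. Directions reversed as follows, and the cause was not tested. In jejunum Apoa1 went to -0.015 with TMM, -0.021 by edgeR and -0.0071 by limma-voom, Apoa4 to 0.21 and Fabp2 to 0.050 with library totals, and Apob to -0.12 and Fabp2 to 0.30 with the length correction. Without single libraries the jejunal log2 change ran from -0.19 to 0.14 for Apoa1, from -1.13 to 0.35 for Mttp, from -0.56 to 0.24 for Apoa4 and from -1.45 to 0.29 for Apoc3, the last 3 above 0 without antibiotics library 3. In liver Apoa4 went to 0.029 by edgeR, 0.012 by DESeq2, 0.093 with the length correction and from -0.54 to 0.37 without single libraries. The tissue difference went to -0.17 (Apob) and -0.22 (Apoa4) with library totals. For Apoc2 it was 0.029 by limma-voom, 0.019 with TMM, 0.093 by edgeR and 0.059 by DESeq2. Without single libraries it ran from -0.082 to 0.35 for Apob, from -0.40 to 0.66 for Apoa4, from -0.33 to 0.28 for Apoc2 and from -0.41 to 0.94 for Fabp1.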

Other observations

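Receptors and clearance genes rose in liver for 2 of the 13 measured, and 0 fell, beside 7.93% of all liver genes called higher and 4.89% lower. Lrp1, a remnant receptor of hepatocytes, rose from 10031 ± 3265 to 26466 ± 6718 normalized counts (log2 1.43, limma adjusted p = 0.0199), and with 14714 bases it is nearly as long as Apob. The count was 1 after the correction for gene length. It was 4 without saline liver library 2, 1 without antibiotics library 3 and 0 without saline library 3 or antibiotics library 1. In jejunum limma called 0 of the 13, with 6 at an unadjusted p under 0.05, edgeR 0 and DESeq2 4, and the median log2 change was 0.03. Of all 19450 jejunal genes tested, 4324 had an unadjusted limma p under 0.05.

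Of 22 measured transcription factors that are known to act on lipoprotein genes, 5 rose and 1 fell in liver. All liver genes gave shares of 7.93% called higher and 4.89% lower. Foxo1 rose by a log2 of 2.29 (46.6 ± 26.0 to 214 ± 43.3 counts, limma adjusted p = 0.00967). The fatty acid receptor gene Ppara rose by 1.96 (51.9 ± 18.5 to 214 ± 111, adjusted p = 0.0225). Hnf4g rose by 2.27 and Srebf2, a regulator of sterol synthesis, by 0.88 (limma adjusted p = 0.0243 and 0.0299). The 1 that fell was Foxa2, with a log2 change of -1.01 (limma adjusted p = 0.0438), which is named here after its value was seen. In liver 3 were called higher and 1 lower after the correction for gene length, and counts without single libraries ran from 0 without saline library 3 to 8 higher and 1 lower without saline library 2. They were 1 higher and 1 lower without saline library 1, and 1, 2 and 1 higher without antibiotics libraries 1, 2 and 3.

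In jejunum 2 of the 22 factors fell and 0 rose, beside 0.519% of all jejunal genes called lower and 0.761% higher. Cebpa fell from 2738 ± 204 to 541 ± 138 counts, a log2 change of -2.37 (limma adjusted p = 0.0108). Srebf1, a regulator of fatty acid synthesis, fell from 1379 ± 525 to 357 ± 50.4, a log2 change of -1.89 (limma adjusted p = 0.0291). Both factors are also active in adipocytes, whose 9 markers all had log2 changes below 0 in jejunum with a median of -2.10. Limma called 0 of these markers and DESeq2 called 8 lower. The part of adipocytes was not tested. The factors called in jejunum were 1 higher and 6 lower without saline library 1, 1 higher and 2 lower without saline library 3, and 0 without any single antibiotics library. They were 0 under scaling by library totals, 1 lower by edgeR, and 2 higher and 7 lower by DESeq2.

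Of the other marker lists in jejunum, smooth muscle had 2 of 10 genes called higher (median log2 change 1.53). Among 3 pancreatic acinar genes 1 was called lower. All jejunal genes gave shares of 0.761% called higher and 0.519% lower. The smooth muscle count was 10 without saline library 1, 1 without saline library 3 and 0 without saline library 2 or any single antibiotics library. It was 6 by DESeq2, 1 under scaling by library totals, and 0 by edgeR or with the correction for gene length. The median was -0.58 for 11 enterocyte genes, -1.20 for 6 goblet cell genes, -2.25 for 6 Paneth cell genes, -1.04 for 10 cell cycle genes, -0.94 for 8 hepatocyte genes and 1.95 for 3 ileal genes, with 0 called by limma in each of these. In liver 1 of 9 hepatocyte genes was called higher and 1 lower, with a median of 0.04, beside 7.93% and 4.89% of all liver genes. Of 10 cell cycle genes 9 had liver log2 changes above 0, with a median of 1.41, and 1 was called higher, the cyclin gene Ccnb1 (log2 3.05, limma adjusted p = 0.0450). Ccnb1 was near the floor with saline, at 0 to 4.09 normalized counts, against 7.97 to 61.2 with antibiotics. Among 5 adipocyte genes Cfd was called lower in liver (log2 change -1.13, limma adjusted p = 0.0419), and among 2 pancreatic acinar genes Cela1 (log2 change -1.83, adjusted p = 0.0218). The adipocyte genes had a liver median of -0.10, with 2 above 0 and 3 below. The acinar genes had a median of -0.19, with 1 above 0 and 1 below. Without saline liver library 2 the cell cycle count was 6, and without any other single liver library it was 0, as was the adipocyte count. The acinar count was 0 without saline library 1 or 3 or antibiotics library 2 or 3. The liver medians of the lists with 0 called by limma were 0.39 for 5 enterocyte genes, -0.10 for 10 smooth muscle genes, 1.07 for 3 goblet cell genes, 0.04 for 4 Paneth cell genes and 0.98 for 2 ileal genes.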
